A study of Mus musculus with 40 samples.

Results

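The 6 genes Slc7a2, Slc7a1, Nos2, Ass1, Asl and Odc1, which carry arginine into cells or convert it, were examined in CT26 tumors under 8 antibody treatments. They were looked up by symbol in the table of counts per gene, and all 6 were found among its 54087 rows and passed the filter on low counts that 14760 genes passed. The list was selected on the Slc7a2 level, which was over 4-fold higher than in isotype-treated tumors in both combinations of anti-PD-1 with the anti-GARP:TGF-β1 mAbs. Those 2 comparisons are therefore described for all 6 genes with no test, and Slc7a2 is tested only between groups that the choice did not use.

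CT26 is a mouse colon carcinoma line, and 1000000 cells were injected s.c. in BALB/c mice, so that every group carried the same tumor. Mice received mAbs i.p. on days 6, 9 and 12, and tumor fragments were collected on day 13, when bulk mRNA was sequenced from 40 mice, 5 per group. The control group received motavizumab, a mIgG2a isotype control. Monotherapies were anti-GARP:TGF-β1 (clone 58A2, mIgG2a) in a WT format or in the FcD format, which does not engage Fc receptors, anti-TGF-β (clone 1D11), and anti-PD-1 in the Fc-silent format (FcS). The 3 combinations paired anti-PD-1 FcS with anti-GARP:TGF-β1 WT (the WT combination), with anti-GARP:TGF-β1 FcD (the FcD combination) or with anti-TGF-β (the anti-TGF-β combination). Levels are given as CPM, counts per 1000000 after scaling of the libraries. In bulk tumor RNA, fewer cells of a type and less RNA per cell cannot be told apart.

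Arginine is taken up mainly by cationic amino acid transporters of the SLC7 family. In the cell it can be broken down to ornithine, oxidized by the inducible nitric oxide synthase to nitric oxide and citrulline, or used for protein. Ornithine feeds polyamine synthesis through ornithine decarboxylase, and citrulline is rebuilt into arginine by argininosuccinate synthase and argininosuccinate lyase. Macrophages and other myeloid cells of tumors are known for inducible nitric oxide synthase, and T cells need arginine to proliferate.

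Total counts per mouse ran from 11931730 to 20680548 (median 14030511), and every pair of mice within a group differed by more than sampling noise (lowest chi-square per degree of freedom 5.85 over 80 pairs). The libraries fell in 2 numbered parts. In the 20 mice numbered 41 to 60 Xist, the RNA of the inactive X chromosome, was at most 0.428 CPM and the Y-linked Ddx3y was at least 6.86 CPM, while in the 20 mice numbered 61 to 80 Xist was at least 62.7 CPM and Ddx3y was at 0. The parts thus differed in sex-linked transcripts, and each group held 2 or 3 mice of each part. All 8 macrophage markers examined (Adgre1, Csf1r, Cd68, Cd14, Fcgr1, Mertk, C1qa and Lyz2) were detected in every group. The epithelial keratins Krt7, Krt8, Krt18 and Krt19, which were followed as carcinoma markers, summed to medians of 8.86 to 24.6 CPM by group. Their sums also separated the parts without overlap, at 3.71 to 17.1 CPM in mice 41 to 60 and 17.6 to 481 CPM in mice 61 to 80. Every mouse received the same CT26 cells, and which cells gave these keratin transcripts was not tested.

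RefSeq (GRCm38.p6) gave promoter sequence for 3 of the 6 genes, Slc7a1, Ass1 and Odc1, of which Ass1 contrasts with Slc7a1 and Odc1 in its levels below. The 250 bases before the RefSeq start are printed 5′ to 3′. For Slc7a1, 2 promoters were listed, and 1 window is printed and searched. Capitals mark matches, on either strand, to an E-box (CACGTG) or a GC box (GGGCGG), and no match overlapped another.
Slc7a1: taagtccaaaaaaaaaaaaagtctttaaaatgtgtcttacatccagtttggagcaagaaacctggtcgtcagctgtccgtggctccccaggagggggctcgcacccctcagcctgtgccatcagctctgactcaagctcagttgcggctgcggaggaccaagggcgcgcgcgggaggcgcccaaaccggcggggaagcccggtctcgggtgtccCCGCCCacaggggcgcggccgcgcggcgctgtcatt
Ass1: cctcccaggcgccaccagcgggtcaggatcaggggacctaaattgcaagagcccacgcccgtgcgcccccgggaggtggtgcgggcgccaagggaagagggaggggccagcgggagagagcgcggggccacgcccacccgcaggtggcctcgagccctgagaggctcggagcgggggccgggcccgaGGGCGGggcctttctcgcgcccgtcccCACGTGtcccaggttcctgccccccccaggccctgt
Odc1: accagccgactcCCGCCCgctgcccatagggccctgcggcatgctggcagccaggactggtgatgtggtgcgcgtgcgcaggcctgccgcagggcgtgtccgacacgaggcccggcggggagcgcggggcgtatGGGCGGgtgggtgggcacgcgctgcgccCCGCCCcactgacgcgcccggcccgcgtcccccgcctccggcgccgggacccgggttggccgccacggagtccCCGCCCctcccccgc
The Slc7a1 window is chr5:148399905-148400154 on the minus strand, the Ass1 window chr2:31470020-31470269 on the plus strand and the Odc1 window chr12:17544623-17544872 on the plus strand. The Ass1 window held 1 E-box and 1 GC box, the Slc7a1 window 1 GC box and the Odc1 window 4 GC boxes. Of 32851 RefSeq promoter windows of the same length, 6.02% held an E-box and 32.7% a GC box. The letters of an interferon-γ activated site (TTCNNNGAA, in 7.02% of windows), an interferon-stimulated response element (GAAA on either side of any 2 bases, in 2.98%) and a κB site (GGGA, any 2 bases and TTCC, in 1.21%) were searched on both strands and were in none of the 3 windows. The G and C content was 62.4% for Slc7a1, 75.6% for Ass1 and 80.0% for Odc1, against a median of 52.4% over all windows. Promoters of Slc7a2, Nos2 and Asl are not shown here.

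Slc7a2 encodes CAT2, the cationic amino acid transporter that is induced in activated macrophages. The gene (ENSMUSG00000031596) lies at chr8:40862396-40922308 on the plus strand of GRCm38, where it overlaps the lincRNA Gm26584 on the other strand, and counts per gene do not separate its splice forms. In isotype-treated tumors the Slc7a2 level was 5.50, 4.63, 4.03, 3.22 and 3.60 CPM in mice 46, 51, 63, 74 and 78. In the WT combination it was 14.0, 5.86, 22.1, 13.6 and 38.2 CPM in mice 45, 55, 64, 69 and 77. All 5 mice of the WT combination lay above all 5 isotype mice, with mouse 55 just above them and mouse 77 far above.

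In the FcD combination the Slc7a2 level was 23.5, 4.07, 12.7, 77.9 and 14.5 CPM in mice 44, 50, 60, 71 and 80. Mouse 50 lay within the isotype range, the other 4 above it, and mouse 71 held the highest level of all 40 mice. The mean was 4.20 ± 0.898 CPM (SD, n = 5) with isotype, 18.8 ± 12.3 CPM in the WT combination and 26.5 ± 29.5 CPM in the FcD combination. The log2 fold changes against isotype were 2.15 (SE 0.575) and 2.66 (SE 0.583), which are the values that chose the list. As a ratio of group means, Slc7a2 was 4.47 and 6.32 times isotype, inside the 4-fold rule in both, and Nos2, next in order, was 3.75 and 4.80 times isotype, outside it in the WT combination. Without mouse 71, the log2 fold change in the FcD combination was 1.70. Within mice 41 to 60 the difference in mean log2 CPM from isotype was 0.83 in the WT and 1.07 in the FcD combination, and within mice 61 to 80 it was 2.60 and 3.17, a difference between the parts that was not tested.

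Against anti-PD-1 alone, the log2 fold change of Slc7a2 was 1.71 (SE 0.563) in the WT and 2.21 (SE 0.570) in the FcD combination, untested because the treated mice chose the list. The first was 2.30 without anti-PD-1 mouse 52, and the second was 2.80 without that mouse and 1.26 without mouse 71.

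Outside these combinations Slc7a2 stayed low in nearly every tumor. Its mean was 3.89 ± 1.01 CPM with anti-GARP:TGF-β1 WT alone and 4.15 ± 1.45 CPM with anti-GARP:TGF-β1 FcD alone (SD, n = 5 each), and the highest of these 10 mice reached 5.52 CPM. With anti-PD-1 alone, mice 47, 52, 54, 67 and 76 had 3.18, 13.3, 2.21, 5.68 and 4.18 CPM. With anti-TGF-β alone, mice 43, 48, 59, 72 and 79 had 2.37, 10.2, 4.79, 3.37 and 3.61 CPM. In each of these 2 groups 1 mouse, number 52 or number 48, stood above the rest at a level like those in the combinations.

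The anti-TGF-β combination had the same shape, with 14.4, 3.77, 4.69, 2.72 and 3.30 CPM in mice 53, 57, 62, 66 and 68. Mouse 53 stood alone above the isotype range. Against anti-PD-1 alone the log2 fold change of Slc7a2 was 0.01 (SE 0.567, unadjusted p = 0.985, adjusted p = 0.995 in edgeR's quasi-likelihood test). Against anti-TGF-β alone it was 0.25 (SE 0.571, unadjusted p = 0.668, adjusted p = 0.883 in edgeR). These are the 2 comparisons of Slc7a2 that share no mouse with its selection, and both estimates turned with the mouse left out. The first ran from 0.60 without mouse 52 to -0.66 without mouse 53, and the second from 0.70 without mouse 48 to -0.42 without mouse 53.

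In the order of group means of Slc7a2, the FcD combination came first and the WT combination followed, and the gap between them was smaller than their SDs. The next step, from the WT combination to the anti-TGF-β combination at 5.77 CPM, was larger than the SD of either group. Anti-PD-1, anti-TGF-β, isotype, anti-GARP:TGF-β1 FcD and anti-GARP:TGF-β1 WT followed, and no neighbours among the last 6 groups differed beyond their SDs.

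Slc7a1 encodes CAT1, the widely expressed transporter that supplies most cells with arginine. The gene (ENSMUSG00000041313) lies at chr5:148327410-148399904 on the minus strand. Its level was 222, 188, 133, 208 and 205 CPM in the isotype mice, 163, 160, 180, 222 and 90.0 CPM in the WT combination, and 158, 130, 172, 179 and 198 CPM in the FcD combination, in the order of mice given for Slc7a2. The groups overlapped, and mouse 77, which ranked 2 of 40 in Slc7a2, had the lowest Slc7a1 level of all 40 mice. The log2 fold changes against isotype were -0.23 (SE 0.166) and -0.19 (SE 0.166). In the anti-TGF-β combination Slc7a1 was 163, 131, 131, 154 and 126 CPM, and 3 of these 5 mice lay below all isotype mice. Its log2 fold change against isotype was -0.44 (SE 0.167, unadjusted p = 0.0124, adjusted p = 0.165 in edgeR), so it did not pass the threshold.

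**Figure D1:**
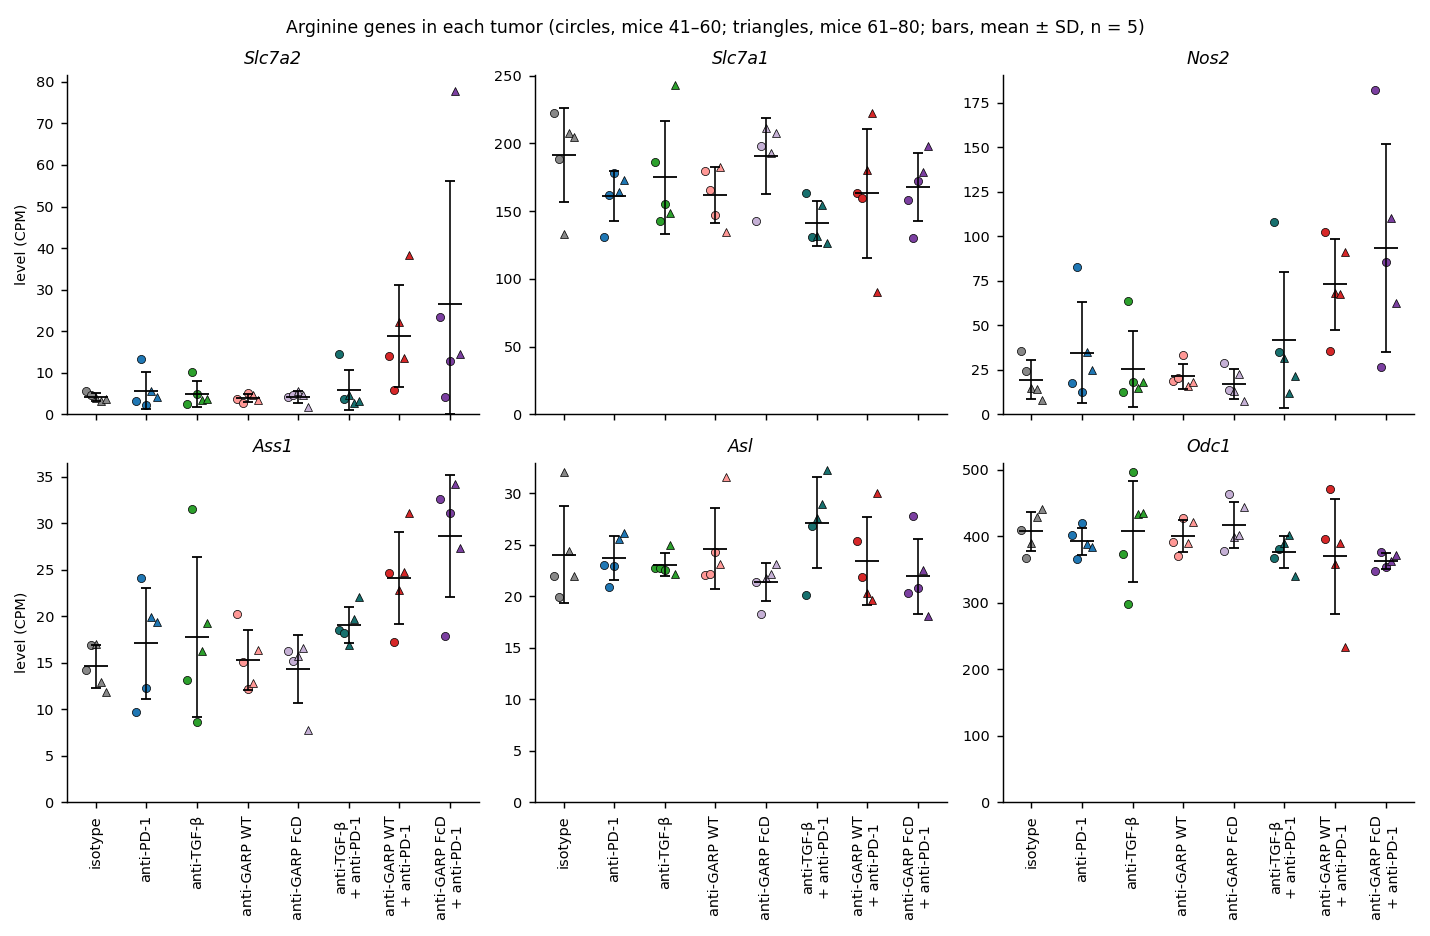
Level of each of the 6 genes (CPM, 1 axis per gene starting at 0) in the tumors of the 8 treatment groups. Circles are mice 41 to 60, triangles mice 61 to 80, and bars are the mean ± SD of 5 mice, with the lower bar stopped at 0. Slc7a2 and Nos2 are highest in the 2 anti-GARP:TGF-β1 combinations, with mice 50 and 55 low among them, while Slc7a1, Asl and Odc1 stay in 1 range.

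Nos2 encodes the inducible nitric oxide synthase, the enzyme of inflammatory macrophages that turns arginine into nitric oxide and citrulline. The gene (ENSMUSG00000020826) lies at chr11:78920787-78960254 on the plus strand. Its level was 35.6, 24.5, 14.9, 14.1 and 7.97 CPM in isotype mice 46, 51, 63, 74 and 78. In the WT combination it was 102, 35.7, 68.1, 67.6 and 91.0 CPM in mice 45, 55, 64, 69 and 77. No WT combination mouse lay below an isotype mouse, although mouse 55 exceeded the highest isotype mouse by very little.

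In the FcD combination Nos2 was 182, 26.2, 85.5, 110 and 62.6 CPM in mice 44, 50, 60, 71 and 80, and mouse 50 again lay within the isotype range. The mean level was 19.4 ± 10.8 CPM with isotype, 72.9 ± 25.6 CPM in the WT combination and 93.3 ± 58.4 CPM in the FcD combination (SD, n = 5 each). The log2 fold changes were 1.90 (SE 0.553) and 2.26 (SE 0.559). Within mice 41 to 60 the difference in mean log2 CPM from isotype was 1.03 in the WT combination and 1.33 in the FcD combination, and within mice 61 to 80 it was 2.64 and 2.79.

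Against anti-PD-1 alone the log2 fold change of Nos2 was 1.43 (SE 0.541, unadjusted p = 0.0122, adjusted p = 0.458 in edgeR) in the FcD combination and 1.07 (SE 0.537, unadjusted p = 0.0537, adjusted p = 0.297 in edgeR) in the WT combination. Both estimates were lowered by anti-PD-1 mouse 52, with 82.9 CPM against 12.4 to 35.2 CPM in the other 4, and without it they were 2.05 and 1.69. In the anti-TGF-β combination Nos2 was 108, 34.9, 31.4, 11.9 and 21.7 CPM. Its log2 fold change against isotype was 1.09 (SE 0.546, unadjusted p = 0.0532, adjusted p = 0.254 in edgeR), and without mouse 53 it was 0.36.

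Ass1 and Asl encode the consecutive enzymes that rebuild arginine from citrulline. Ass1 (ENSMUSG00000076441, chr2:31470207-31520672, plus strand) was 14.3, 16.9, 17.1, 13.0 and 11.9 CPM in the isotype mice, 24.6, 17.3, 22.9, 24.8 and 31.1 CPM in the WT combination, and 32.6, 17.9, 31.1, 34.2 and 27.3 CPM in the FcD combination. It was the 1 gene of the 6 for which both combinations lay entirely above isotype. Its log2 fold changes were 0.72 (SE 0.247) and 0.97 (SE 0.247). Against anti-PD-1 alone, where the mice ran from 9.67 to 24.1 CPM, they were 0.50 (SE 0.245, unadjusted p = 0.0514, adjusted p = 0.293 in edgeR) and 0.74 (SE 0.246, unadjusted p = 0.00467, adjusted p = 0.458 in edgeR).

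Asl (ENSMUSG00000025533, chr5:130011258-130029247, minus strand) showed no such difference. It ran from 19.9 to 32.1 CPM with isotype, from 19.7 to 30.0 CPM in the WT combination and from 18.1 to 27.8 CPM in the FcD combination. Its log2 fold changes against isotype were -0.04 (SE 0.129) and -0.13 (SE 0.130). Over all 40 mice the highest Asl level was 1.78 times the lowest, against 4.36 times for Ass1.

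Odc1 encodes ornithine decarboxylase, the first enzyme of polyamine synthesis. The gene (ENSMUSG00000011179, chr12:17544794-17551505, plus strand) overlaps the snoRNA Gm22748 on the same strand. Its level was 410, 367, 390, 429 and 441 CPM with isotype, 396, 471, 358, 391 and 233 CPM in the WT combination and 348, 376, 355, 363 and 372 CPM in the FcD combination. Mouse 77 had the lowest Odc1 level of the 40 mice, as it had for Slc7a1. On the log2 scale the differences from isotype were -0.14 (SE 0.114) and -0.17 (SE 0.114), and no comparison of Odc1 passed the threshold.

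**Figure D2:**
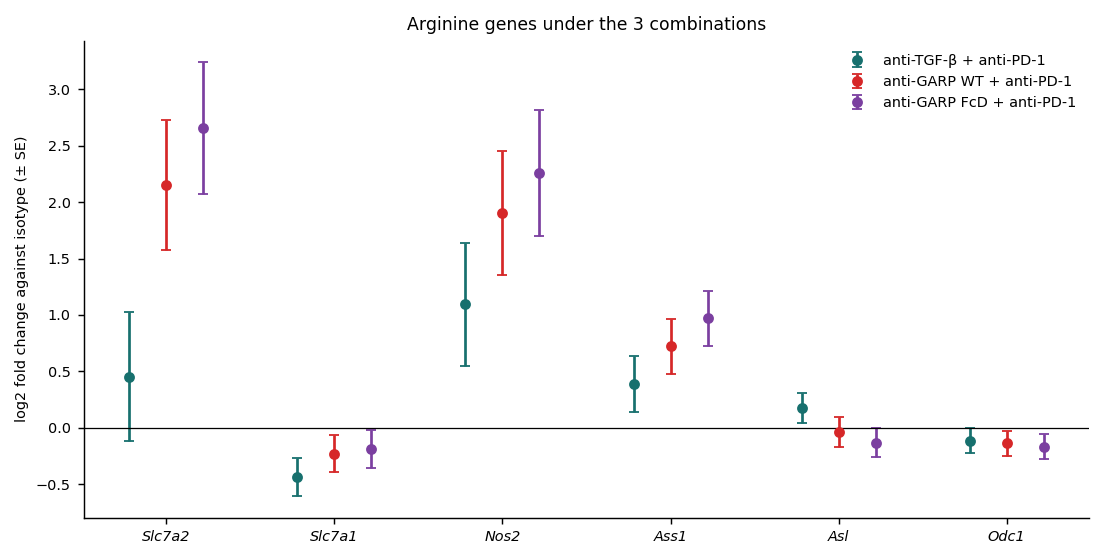
Log2 fold change against isotype (± SE) of the 6 genes in the 3 combinations with anti-PD-1, from 1 edgeR model of all 40 mice. Slc7a2 and Nos2 lie between 1.90 and 2.66 in both anti-GARP:TGF-β1 combinations, Ass1 at 0.72 and 0.97, and Slc7a1, Asl and Odc1 just below 0, while in the anti-TGF-β combination the highest value is that of Nos2 at 1.09.

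Over the whole list, 2 of 6 genes (Slc7a2 and Nos2) were at least 2-fold higher than with isotype in the WT combination, where 7.13% of all 14760 genes were, and the same 2 were in the FcD combination, where 7.38% were. The 5 mice of the WT combination lay above all isotype mice for Slc7a2, Nos2 and Ass1 (3 of 6, against 1.35% of all genes), and the 5 mice of the FcD combination for Ass1 (1 of 6, against 1.96%). These comparisons chose the list, so nothing is read from the shares. The median log2 fold change of the 6 genes was 0.34 and 0.42, and over all genes it was 0.01 and -0.00398.

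Not one of the 6 genes had an adjusted p under 0.05 in any comparison in which it was tested, and nearly no gene of the table did in edgeR. The share of all genes past the adjusted threshold was 0% in every comparison except the anti-TGF-β combination against anti-PD-1, at 0.00678%, which is the single gene Isg15, named here after its values were seen. With the library part as a covariate, 17 genes passed it in the FcD combination against isotype. Past an unadjusted p of 0.05 were 20.7% of all genes in the WT combination against isotype, 16.6% in the FcD combination, 20.1% in the anti-TGF-β combination, 2.32% under anti-TGF-β alone, 0.955% with anti-PD-1 alone, 0.969% with anti-GARP:TGF-β1 WT alone and 0.474% with anti-GARP:TGF-β1 FcD alone. Against isotype, the tested genes past it numbered 1 of 5 in the anti-TGF-β combination (Slc7a1) and 0 of 5 in each monotherapy. The monotherapy with the lowest of these was anti-PD-1, where Nos2 had a log2 fold change of 0.83 (SE 0.545, unadjusted p = 0.137, adjusted p = 1.00 in edgeR), which was 0.21 without mouse 52. DESeq2 called 0, 14 and 137 genes against isotype in the WT, FcD and anti-TGF-β combinations, and 1, 1, 1 and 0 genes for anti-TGF-β, anti-PD-1, anti-GARP:TGF-β1 WT and anti-GARP:TGF-β1 FcD alone.

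Against anti-PD-1 alone, 0 of 5 tested genes were past an unadjusted p of 0.05 in the WT combination, where 17.2% of all genes were past it, and 2 of 5 (Nos2 and Ass1) in the FcD combination, where 10.7% were. Both were higher in the combination, and neither passed after adjustment, where DESeq2 also called 0 genes of the table. In the FcD combination against anti-PD-1, edgeR called 0 genes with any 1 mouse left out, but in other comparisons the count depended on single mice. Without mouse 52, it called 544 genes in the WT combination against anti-PD-1. Without mouse 53, it called 2054 genes in the anti-TGF-β combination against isotype, 1743 against anti-PD-1 and 4 against anti-TGF-β. Leaving out any 1 mouse brought none of the 6 genes past the adjusted threshold where it was tested. The treated mice are those on which the list was chosen. In the anti-TGF-β combination 0 of 6 genes were past an unadjusted p of 0.05 against anti-PD-1 alone (17.1% of all genes, 78 calls by DESeq2) and 0 of 6 against anti-TGF-β alone (9.84% of all genes, 1 call by DESeq2).

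Per kilobase of annotated exon the order of the 6 genes shifted between treatments. With isotype the mean level was 120 CPM per kb for Odc1, 16.6 for Slc7a1, 6.06 for Ass1, 4.98 for Asl, 4.40 for Nos2 and 0.459 for Slc7a2. In the FcD combination Odc1 was at 107 CPM per kb, and Nos2 at 21.1 CPM per kb stood above Slc7a1 at 14.5. Slc7a2 stayed the lowest of the 6 on this scale in both combinations, at 2.05 CPM per kb in the WT and 2.90 in the FcD combination, so that CAT1 transcripts remained more abundant than CAT2 transcripts.

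The spread between mice of a group was widest for the genes with the largest differences. The SD of log2 CPM within groups was 0.89 for Slc7a2, 0.88 for Nos2 and 0.41 for Ass1, but 0.28 for Slc7a1, 0.20 for Asl and 0.18 for Odc1. The same mice were high in several genes. Mouse 44 ranked 1 of 40 in Nos2, 2 in Ass1 and 3 in Slc7a2. Mouse 71 ranked 1 in Slc7a2 and Ass1 and 2 in Nos2.

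Outside the anti-GARP:TGF-β1 combinations, mouse 53 of the anti-TGF-β combination ranked 3 of 40 in Nos2 and 6 in Slc7a2. Mouse 48, given anti-TGF-β alone, ranked 3 in Ass1 and 10 in Nos2. Mouse 52, given anti-PD-1 alone, ranked 7 in Nos2 and 9 in Slc7a2 and Ass1. Within the combinations mouse 50 ranked 25 in Slc7a2 and 19 in Nos2, and mouse 55 ranked 12 in both.

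**Figure D3:**
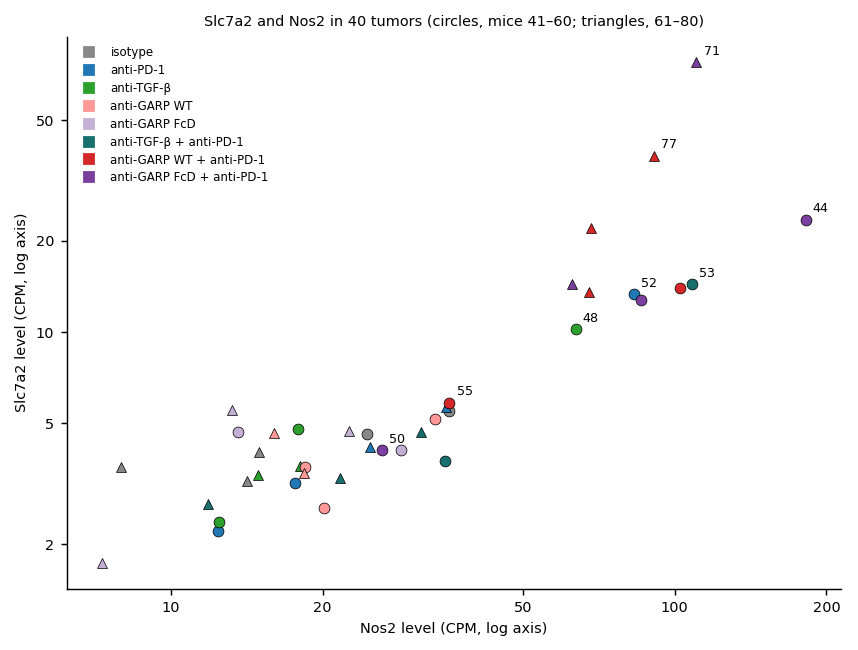
Slc7a2 level against Nos2 level (CPM, both axes log) in the 40 tumors, coloured by treatment, with circles for mice 41 to 60 and triangles for mice 61 to 80. Mice with more Slc7a2 held more Nos2, mice 52, 48 and 53 lie beside the anti-GARP:TGF-β1 combinations and mice 50 and 55 beside the other groups, and at high levels the triangles hold more Slc7a2 for their Nos2 than the circles.

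Across the 40 mice the log2 level of Slc7a2 followed Nos2 with r = 0.88 and Spearman's rho = 0.84. On deviations from the group means, which remove differences between treatments, r was 0.79. Within mice 41 to 60 and within mice 61 to 80, with differences between treatments left in, it was 0.95 and 0.91. Without the 2 mice farthest from the median of Slc7a2, r was 0.91. All correlations here are descriptions over 40 mice, whose values share a library, its depth and its cell makeup.

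With Slc7a2, r was 0.76 for Ass1, and on deviations 0.58. Nos2 followed Ass1 (r = 0.78, on deviations 0.60). Odc1 ran against Ass1 (r = -0.67), and Slc7a1 against Asl (r = -0.65). Asl, the partner of Ass1 in citrulline recycling, did not follow it (r = -0.03).

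**Figure D4:**
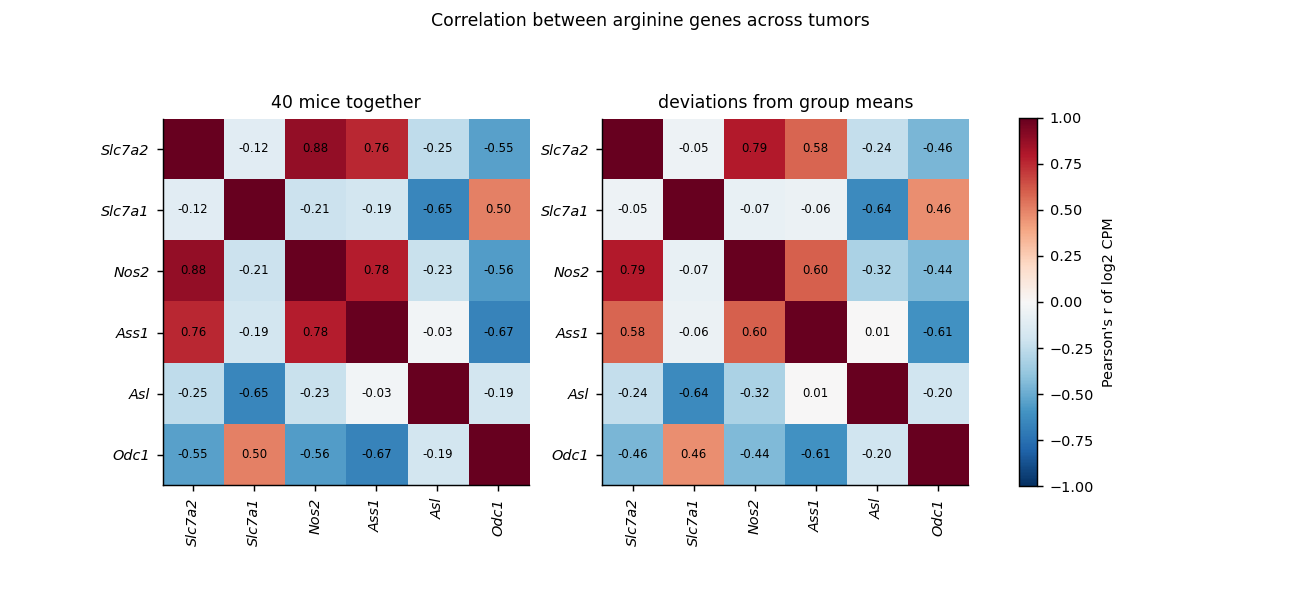
Pearson's r of log2 CPM between the 6 genes over 40 mice, pooled (left) and on deviations from the group means (right), with colour from -1 to 1. Slc7a2, Nos2 and Ass1 form a block of positive values, from 0.76 to 0.88 pooled, and Odc1 is negative with all 3.

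Of 14759 other genes, those with the highest r to Slc7a2 over the 40 mice were Il7r (0.90), which encodes the IL-7 receptor α chain, Pygl (0.89), the liver glycogen phosphorylase, Tbc1d9 (0.89), the membrane protease gene Adam8 (0.88) and Gpr35 (0.88), followed by Nos2 at rank 6. Fnip2, Slamf7, Dpy19l3 and Rrbp1 (0.88 to 0.87) filled ranks 7 to 10. On deviations from the group means these 10 lay between 0.79 and 0.84. Ass1 stood at rank 401 of likeness to Slc7a2, and Slc7a1, Asl and Odc1 at 8286, 9450 and 12238.

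The genes most like Nos2 were Glrx (0.93), which encodes glutaredoxin, Il7r (0.92), Adam8 (0.92), Il1rn (0.91), the IL-1 receptor antagonist, and Clec4e (0.91), the C-type lectin Mincle. Ass1 was most like Stat3, Icam1, Il18bp, Hk3 and Acod1 (0.88 to 0.87). Slc7a1 was most like Iars (0.93), an isoleucyl-tRNA synthetase gene, with Ddr2, Aldh1l2, Zfp507 and Kirrel. Odc1 was most like Ddx27, Hspa9, Immt, Nop58 and Psat1 (0.89 to 0.88), and Asl like RP23-221O14.10, Sdf4, Mien1 and Dguok (0.84 to 0.81).

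Most markers of myeloid cells had means above isotype in the combination groups, though not in each mouse. The summed macrophage markers had a median of 2642 CPM (range 1935 to 3154) with isotype, 2928 CPM (2082 to 9707) in the WT combination, 3697 CPM (3151 to 5011) in the FcD combination and 3329 CPM (2932 to 3968) in the anti-TGF-β combination. Mice 45, 55 and 69 of the WT combination, at 2928, 2648 and 2082 CPM, lay within the isotype range, and mouse 69 ranked 35 of 40 for this sum and 8 for Slc7a2. Of 8 macrophage markers, 7 were above isotype in the WT combination and 7 in the FcD combination, with a median log2 fold change of 0.77 and 0.61, where 51.9% and 49.3% of all genes were above it. Of 8 neutrophil markers, 7 were in the table and 5 were tested, all 5 above isotype in both, and their sum had a median of 25.6 CPM (22.2 to 64.3) with isotype, 65.5 CPM (40.7 to 182) in the WT combination, 80.5 CPM (37.2 to 172) in the FcD combination and 71.8 CPM (34.0 to 123) in the anti-TGF-β combination.

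Mouse 77 had the highest macrophage sum and mouse 48 the highest neutrophil sum of the 40 mice. Over the 40 mice, r with the neutrophil sum was 0.78 for Nos2, 0.68 for Slc7a2 and 0.62 for Ass1, and r with the macrophage sum was 0.60, 0.59 and 0.70 in the same order. By rank, Slc7a2 and the macrophage sum had a Spearman rho of 0.37. With the sums of other lists, r of Slc7a2 was 0.63 for endothelial, 0.56 for T cell, 0.52 for adipocyte, 0.41 for keratinocyte, 0.32 for epithelial keratin, 0.29 for fibroblast and 0.058 for skeletal muscle markers. In the same order, Spearman's rho was 0.34, 0.47, 0.41, 0.0902, -0.0186, 0.12 and -0.15. For adipocyte markers r was 0.21 within mice 41 to 60 and 0.84 within mice 61 to 80. On deviations from the group means, r with the T cell sum was 0.63 for Slc7a2, 0.74 for Nos2 and 0.67 for Ass1, beside 0.66, 0.74 and 0.43 with the neutrophil sum. With the macrophage sum it was 0.45, 0.42 and 0.56 in the same order.

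T cell markers had median sums of 40.6 CPM (16.9 to 52.6) with isotype, 37.9 CPM (22.4 to 214) in the WT combination and 41.7 CPM (20.9 to 90.7) in the FcD combination, with the highest sum of the 40 mice in mouse 77. Mice 45, 55, 64 and 69 of the WT combination had T cell sums of 37.9, 22.4, 60.5 and 30.8 CPM. Over all genes, 51.9% and 49.3% were above isotype in the WT and FcD combinations, and 7.13% and 7.38% were at least 2-fold higher. All 5 T cell markers had fitted log2 fold changes above 0 in both, with medians of 0.96 and 0.28. All 4 endothelial markers did so too, with medians of 0.94 and 0.65 and sums of 75.9 to 99.4 CPM with isotype, 62.3 to 431 CPM in the WT combination (highest in mouse 77) and 79.9 to 195 CPM in the FcD combination. The 4 epithelial keratins were all at least 2-fold higher in the fit of both, with medians of 2.27 and 3.17, which single mice carried. Their median sum was 19.0 CPM (5.75 to 28.7) with isotype, 24.6 CPM in the WT combination, with 210.2 CPM in mouse 77, and 10.7 CPM in the FcD combination, where mouse 71 had 481 CPM and the other 4 had 5.93 to 48.8 CPM. Of 5 keratinocyte markers, which belong to skin, 3 were tested and 2 of them were at least 2-fold higher in both (list medians 2.54 and 3.16). Their median sums were 4.36, 4.88 and 5.20 CPM with isotype and in the WT and FcD combinations, and mice 71, 52 and 77 held the 3 highest sums of the 40 mice, at 28.7, 28.3 and 18.0 CPM. Dsg1a was at 0 in all mice of these 3 groups, and Krt1 in the FcD combination. Of 6 fibroblast markers, 2 were above isotype in the WT combination (median log2 fold change -0.03) and 5 in the FcD combination (median 0.50), where 2 were at least 2-fold higher, and their sum had a median of 1086 CPM (896 to 1318) with isotype, 948 CPM (882 to 1568) in the WT combination and 1407 CPM (832 to 2153) in the FcD combination. Adipocyte markers, whose tissue of origin was not tested, had a median sum of 9.23 CPM (3.67 to 61.3) with isotype, 64.7 CPM (18.3 to 82.9) in the WT combination and 119 CPM (29.3 to 621) in the FcD combination. Their median log2 fold change against isotype was 1.20, 3.24 and 1.00 in the WT, FcD and anti-TGF-β combinations. Alone, anti-TGF-β gave 2.13, anti-PD-1 1.56, anti-GARP:TGF-β1 WT 1.13 and anti-GARP:TGF-β1 FcD -0.22. Against anti-PD-1 alone it was -0.52 in the WT and 1.74 in the FcD combination. Mouse 71 had the highest adipocyte sum (621 CPM) and the highest keratin sum of the 40 mice, and mouse 52 the highest sum of skeletal muscle markers (155 CPM). Odc1 ran against the macrophage sum (r = -0.85, on deviations -0.84). No defining marker of macrophages, neutrophils, T cells or adipocytes in the table was at 0 in all 5 mice of isotype or of a combination, and the part of these cell types in the levels of the 6 genes was not tested.

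Around the 6 genes, 74 genes of the pathway in 8 lists were followed, and 61 of them passed the filter on low counts. Against isotype, 2 of the 61 were at least 2-fold higher in the WT combination and 4 in the FcD combination, which is 3.28% and 6.56% of them, where 7.13% and 7.38% of all genes tested were. The count 2-fold lower was 0 in either, against 0.21% and 0.142% of all genes. The median log2 fold change of the 61 was -0.04 in both combinations. No set test was run on the lists, and 0 of the 61 genes had an adjusted p under 0.05 by edgeR in any comparison.

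Among 8 other transporters of cationic amino acids that were tested, the one farthest from isotype was Slc7a7, the y+L exporter of macrophages and epithelia, with 34.4 ± 24.5 CPM in the WT combination and 33.2 ± 8.93 CPM in the FcD combination against 20.4 ± 1.95 CPM (SD, n = 5). The median of the list was -0.08 and -0.03. Of 6 tested genes of arginine and ornithine breakdown and proline synthesis, Pycr1, a pyrroline-5-carboxylate reductase, stood farthest on average over both combinations, at log2 fold changes of -0.66 and -0.50, while Aldh4a1, an enzyme of proline breakdown, lay on the other side at 0.31 and 0.64 and was the farthest in the FcD combination (named after its values were seen). Of 9 tested genes of nitric oxide synthesis, its cofactor tetrahydrobiopterin and its inhibitors, 2 were above isotype in each combination, beside 51.9% and 49.3% of all genes. Gchfr, which encodes the feedback regulator of cofactor synthesis, was at -0.51 in both. The list's median was -0.25 in the WT and -0.16 in the FcD combination, opposite in sign to Nos2 itself.

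Of 13 tested polyamine genes, Sat1, which acetylates polyamines for export, was 204 ± 115 CPM in the WT and 178 ± 28.3 CPM in the FcD combination against 126 ± 29.7 CPM with isotype. Of 8 tested genes of creatine synthesis and arginine modification, the low Padi4, a peptidyl arginine deiminase of neutrophils, differed most, with log2 fold changes of 0.45 and 1.50 at levels of 0.697 and 1.45 CPM. Genes of arginine sensing and the amino acid response were mostly below isotype, 6 of 7 tested in each combination beside 48.1% and 50.7% of all genes, with a median of -0.33 and -0.30 and Chac1 at -0.53 and -0.64. This response is known to be switched on by a shortage of amino acids.

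Of 5 tested genes that induce Nos2, all 5 had log2 fold changes above 0 in both combinations, with a median of 0.51 and 0.69, beside 51.9% and 49.3% of all genes. Some lay close to 0, with Il1b at 0.08 in the WT combination and Nfkb1 at 0.08 in both. Ifng, which encodes interferon-γ, was 3.09 ± 1.52 CPM in the WT and 3.36 ± 0.486 CPM in the FcD combination against 1.19 ± 0.489 CPM, and Tnf had log2 fold changes of 0.93 and 1.16 (Il1b, Nfkb1, Tnf and Irf1 are named after their values were seen). In the anti-TGF-β combination Ifng was as high, at 3.31 ± 0.915 CPM (log2 fold change 1.46, SE 0.475, unadjusted p = 0.00400, adjusted p = 0.141 in edgeR), and Il1b and Irf1 were also past an unadjusted p of 0.05. Of the 5 tested type 2 inducers and their macrophage genes, all 5 were above isotype in both anti-GARP:TGF-β1 combinations, beside 51.9% and 49.3% of all genes. The lowest lay at 0.09 and 0.03. Chil3, which encodes the macrophage protein Ym1, was 1.07 ± 0.247 CPM in the WT and 1.01 ± 0.939 CPM in the FcD combination against 0.324 ± 0.194 CPM. With anti-PD-1 alone Chil3 was 0.982 ± 0.758 CPM, from which the combinations differed by 0.12 and 0.05 on the log2 scale (adjusted p = 0.923 and 0.967 in edgeR). With anti-TGF-β alone it was 1.45 ± 0.811 CPM (log2 fold change against isotype 2.10, SE 0.578, unadjusted p = 0.000875, adjusted p = 1.00 in edgeR). In the anti-TGF-β combination Chil3 was 1.93 ± 0.564 CPM (log2 fold change 2.52, SE 0.575, unadjusted p = 9.68e-05, adjusted p = 0.106 in edgeR).

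Over the 61 genes, an unadjusted p under 0.05 was reached in the anti-TGF-β combination by 9 higher and 5 lower genes against isotype, and by 5 higher and 3 lower genes against anti-PD-1 alone. These are 23.0% and 13.1% of the 61, beside 20.1% and 17.1% of all genes tested. Against anti-PD-1 alone, 5 were higher and 7 lower in the WT combination and 8 higher and 4 lower in the FcD combination, 19.7% of the 61 in each, beside 17.2% and 10.7% of all genes. Among them Eif2ak4, which encodes the amino acid sensor GCN2 and was named after its values were seen, had log2 fold changes of 0.30 and 0.27 against anti-PD-1 in the WT and FcD combinations and -0.24 in the anti-TGF-β combination (adjusted p = 0.231, 0.458 and 0.261 in edgeR).

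**Figure D5:**
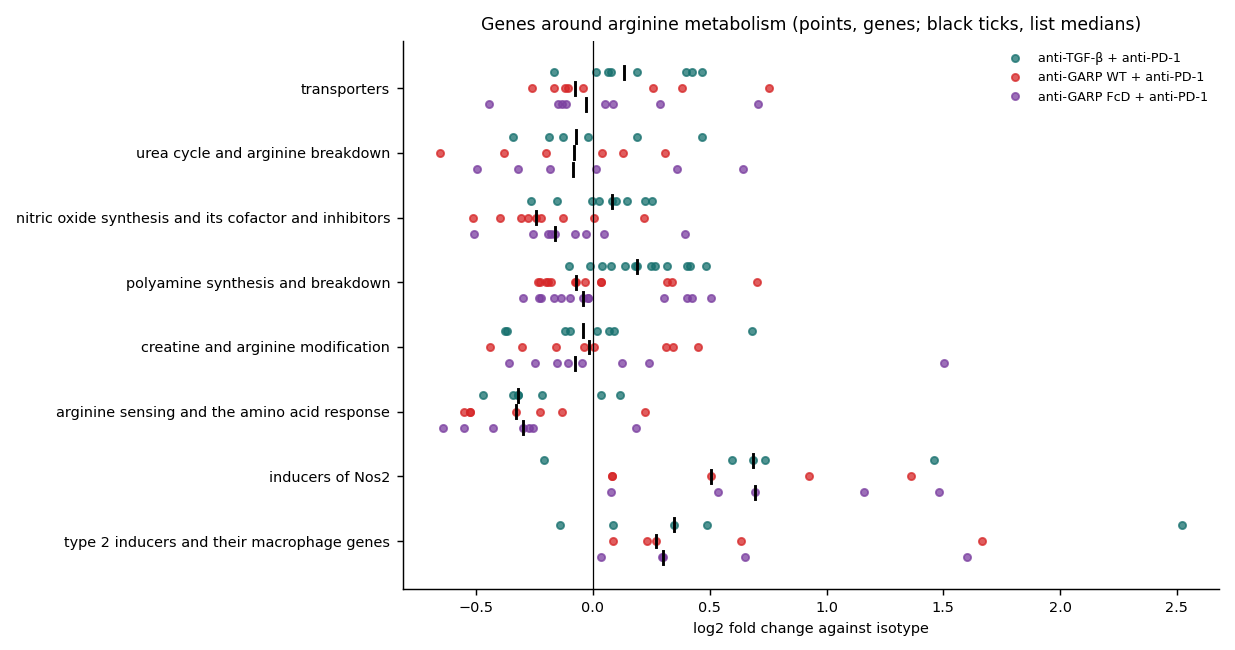
Log2 fold change against isotype of 61 genes around arginine metabolism in 8 lists, for the 3 combinations with anti-PD-1, where each point is a gene and black ticks are list medians. In both anti-GARP:TGF-β1 combinations all Nos2 inducers and type 2 genes lie to the right of 0. The amino acid response and nitric oxide lists lie mostly to the left, and the other lists around 0.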

How the data were processed

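Stranded mRNA libraries of 40 CT26 tumors were sequenced. The authors aligned reads to GRCm38 with STAR 2.5.3a, used SAMtools 1.6, and deposited raw counts per gene made with HTSeq 0.9.1, without normalization. The strand setting of the counting and its annotation release are not given in the sources used here. All 40 columns were used and 0 left out, and 27 gene names turned into calendar dates were not used. Total counts ran from 11931730 to 20680548.

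Counts were scaled with TMM and filtered with filterByExpr in edgeR 4.0.16 (R 4.3.3, limma 3.58.1), and the robust quasi-likelihood test (2-sided) was applied to 11 comparisons in 1 model of all 40 mice, with Benjamini-Hochberg adjustment over 14760 genes and a threshold of 0.05. SEs were obtained from the log2 fold change and the square root of its F statistic, as their quotient. CPM uses the TMM library sizes, and log2 CPM a prior count of 2. Values within library parts are differences of mean log2 CPM. Labels do not say that mice shared a cage or a batch, and p-values measure the spread between mice. Gene positions and exon lengths came from GENCODE vM21. Tables and figures used Python 3.11.15, numpy 2.4.6, pandas 2.3.3, scipy 1.17.1 and matplotlib 3.10.9. The script was tested on simulated data.

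Named genes are the 6 members, the 10 genes most like Slc7a2 and the 5 most like each other member by r, and, per pathway list, genes at least 2-fold from isotype in both anti-GARP:TGF-β1 combinations or else the gene with the largest mean difference. Results of 2 further members, 1 list gene and 1 gene of likeness are not reported here. The members and lists were chosen with earlier results of these data known. Alternatives were DESeq2 1.42.0 size factors and Wald test, no filter on low counts, only the 2 groups compared, the library part as a covariate, and each mouse left out.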

Additional observations from a re-analysis of the deposited data

Results flagged for a closer look

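The 6 genes in 8 groups of 5 mice gave 48 sets of values, and in 9 of them 1 mouse lay apart from the other 4 by Dixon's criterion. Chance alone passes it in about 1 in 20 independent sets, but these sets share mice and the genes are correlated, so the count is not read against that rate. For Slc7a2 these were mouse 53 of the anti-TGF-β combination (14.4 CPM, highest, the other 4 at 2.72 to 4.69 CPM) and mouse 71 of the FcD combination (77.9 CPM, highest, the other 4 at 4.07 to 23.5 CPM). For Slc7a1 this was mouse 41 of anti-GARP:TGF-β1 FcD alone (143 CPM, lowest, the other 4 at 193 to 212 CPM). For Nos2 these were mouse 48 of anti-TGF-β alone (63.5 CPM, highest, the other 4 at 12.5 to 18.1 CPM), mouse 56 of anti-GARP:TGF-β1 WT alone (33.4 CPM, highest, the other 4 at 16.0 to 20.1 CPM) and mouse 53 of the anti-TGF-β combination (108 CPM, highest, the other 4 at 11.9 to 34.9 CPM). For Ass1 this was mouse 75 of anti-GARP:TGF-β1 FcD alone (7.84 CPM, lowest, the other 4 at 15.2 to 16.6 CPM). For Asl these were mouse 72 of anti-TGF-β alone (25.0 CPM, highest, the other 4 at 22.2 to 22.8 CPM) and mouse 73 of anti-GARP:TGF-β1 WT alone (31.5 CPM, highest, the other 4 at 22.1 to 24.3 CPM). Mouse 53 lay apart in both Slc7a2 and Nos2. No gene moved in opposite directions in all mice of 2 groups under 1 comparison.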

How the results depend on the processing

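The signs and values below cover 11 comparisons under 5 alternatives in all mice and with each mouse left out. In all mice 8 of 330 values of the 6 genes changed sign, all 8 among the 235 that were tested, and each of the 8 lay near 0. None of the 235 tested values came past the adjusted threshold. With the library part as a covariate, against isotype these were Odc1 at -0.00246 with anti-TGF-β and Asl at 0.00997 with anti-PD-1, and, against anti-PD-1, Slc7a1 at -8.52e-05 in the WT combination. Odc1 with anti-TGF-β was -0.000551 with DESeq2 size factors, -0.000491 in DESeq2 and -0.000234 without the filter. Without the filter, Slc7a1 with anti-GARP:TGF-β1 FcD was 0.00239, and Slc7a2 in the anti-TGF-β combination against anti-PD-1 was -0.00882.

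Counts of genes past the adjusted threshold moved as follows. DESeq2 called 14 genes in the FcD combination against isotype, 137 in the anti-TGF-β combination against isotype, 78 in it against anti-PD-1 and 1 in it against anti-TGF-β, and 1 each with anti-GARP:TGF-β1 WT, anti-TGF-β and anti-PD-1 alone. The library part as a covariate gave 17 in the FcD combination against isotype. A model of only the 2 groups gave 2 in the anti-TGF-β combination against isotype and 0 in it against anti-PD-1. With a mouse left out, counts ran from 0 to 3 in the FcD combination against isotype, from 0 to 2054 in the anti-TGF-β combination against isotype (2054 without mouse 53, 651 without isotype mouse 63), from 0 to 544 in the WT combination against anti-PD-1 (544 without mouse 52), from 0 to 1743 in the anti-TGF-β combination against anti-PD-1 (1743 without mouse 53) and from 0 to 4 in it against anti-TGF-β (4 without mouse 53). The cause was not tested.

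With a mouse left out, 57 of 660 log2 fold changes of the 6 genes changed sign, 46 of 470 tested and 11 of 190 untested, and the range of each gene concerned is given. Of the untested, Slc7a2 against isotype ran from -0.22 to 0.63 in the anti-TGF-β combination, from -0.14 to 0.65 with anti-PD-1, from -0.25 to 0.38 with anti-TGF-β, from -0.24 to 0.00373 with anti-GARP:TGF-β1 WT and from -0.15 to 0.18 with anti-GARP:TGF-β1 FcD, and Asl in the WT combination ran from -0.14 to 0.0886. Anti-TGF-β against isotype gave Nos2 from -0.30 to 0.72, Ass1 from -0.0239 to 0.46, Asl from -0.12 to 0.0641 and Odc1 from -0.0815 to 0.0945. Anti-PD-1 against isotype gave Asl from -0.0813 to 0.10. Anti-GARP:TGF-β1 WT against isotype gave Nos2 from -0.0931 to 0.47, Ass1 from -0.0504 to 0.14, Asl from -0.0702 to 0.16 and Odc1 from -0.0615 to 0.00396. Anti-GARP:TGF-β1 FcD against isotype gave Slc7a1 from -0.11 to 0.0829, Nos2 from -0.46 to 0.15, Ass1 from -0.0948 to 0.13 and Odc1 from -0.00446 to 0.0687. The WT combination against anti-PD-1 gave Slc7a1 from -0.12 to 0.17, Asl from -0.12 to 0.0408 and Odc1 from -0.19 to 0.0427. The FcD combination against anti-PD-1 gave Slc7a1 from -0.0132 to 0.13. The anti-TGF-β combination against anti-PD-1 gave Slc7a2 from -0.66 to 0.60 and Nos2 from -0.47 to 0.88. The anti-TGF-β combination against anti-TGF-β gave Slc7a2 from -0.42 to 0.70, Nos2 from -0.0176 to 1.39 and Ass1 from -0.0695 to 0.41. Without mouse 53, Slc7a2 and Nos2 changed sign in the anti-TGF-β combination against either monotherapy, and Slc7a2 also did so against anti-PD-1 without single control mice. No paired analysis was possible because the labels give no replicate numbers shared between groups. Slc7a2 had 26 to 1155 counts per mouse and an SD of 0.89 in log2 CPM within groups.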
